A study of Mus musculus with 9 samples.

Results

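The genes described here are 9 components of the kinase cascade that carries axon injury signals through JNK, taken by name as the rows Map3k12 (DLK), Map3k13 (LZK), Map2k4 (MKK4), Map2k7 (MKK7), Mapk8 (JNK1), Mapk9 (JNK2), Mapk10 (JNK3), Mapk8ip1 (JIP1) and Mapk8ip3 (JIP3). All 9 were found among the 15228 genes of the deposited expression table. mRNA had been sequenced from cells of wild-type mice, whose optic nerve surgery was done at 6 to 8 weeks of age. Cells of the Ctrl group came from normal, uninjured retinas. Cells of the ONC group came from retinas after optic nerve crush (ONC), which damages the axons of retinal ganglion cells (RGCs), with PBS injected into the eye. Cells of the TPEN group came from crushed eyes injected with the membrane-permeable zinc chelator TPEN at 100 μM in 3 μL per eye. Injections followed the crush directly, and retinas were taken 3 d later. Each group had 3 libraries, and the sources used here do not say whether these came from separate mice, so the p-values measure the spread between libraries, which may be technical. Ctrl eyes are not described as injected, so ONC/Ctrl holds the crush together with the injection. TPEN/Ctrl holds the crush, the injection and the chelator, whose parts cannot be told apart in that comparison.

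DLK and LZK are kinases of the mixed-lineage family that sit along axons. When an axon is damaged they phosphorylate MKK4 and MKK7, which in turn phosphorylate the JNKs, while JIP1 and JIP3 hold these kinases together and link them to axonal motors. In RGCs this cascade is known for carrying the crush signal back to the cell body, where JNK acts on transcription factors of the Jun and Atf families. Its switch is phosphorylation, which mRNA levels do not show.

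The libraries held 20077226 to 23109754 reads in Ctrl, 22967138 to 22986065 in ONC and 19946993 to 22217283 in TPEN, as worked out from the deposited values. The sort took cells that carried CD90.2 and lacked CD48, CD15 and CD57. Its cells were nevertheless rich in rod transcripts: Gnat1, the transducin of rods, took 2.91% to 3.65% of reads. The 9 listed RGC markers stood apart from each other in level: the neurofilament genes Nefl and Nefm ranked 153 and 847 of 15228 genes, Sncg 2289, Thy1 (the gene of CD90) 6283, Tubb3 7783 and Nrn1 10632, whereas Rbpms, Slc17a6 and Pou4f1 ranked 13805, 14020 and 14252. Pou4f2, another RGC marker that was looked for, was not in the expression table. The cells were sorted as RGCs, and what part of them were RGCs was not tested. In such bulk samples, fewer cells of a type and less RNA per cell cannot be told apart.

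The 3 JNK genes are close relatives, and so are DLK and LZK, which bears on whether their reads can be told apart. The coding sequences below come from GENCODE M21 transcripts (GRCm38). For each family, the window of 90 bases with the most identical bases among those searched is shown, 5′ to 3′, with capitals at the positions where the genes of the family differ.
Mapk8: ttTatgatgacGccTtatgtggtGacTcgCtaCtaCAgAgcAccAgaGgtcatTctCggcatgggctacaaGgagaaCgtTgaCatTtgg
Mapk9: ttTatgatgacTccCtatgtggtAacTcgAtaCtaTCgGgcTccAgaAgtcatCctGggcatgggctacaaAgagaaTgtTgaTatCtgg
Mapk10: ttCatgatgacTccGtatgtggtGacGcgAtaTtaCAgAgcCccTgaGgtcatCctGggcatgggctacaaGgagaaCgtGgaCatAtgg
Map3k12: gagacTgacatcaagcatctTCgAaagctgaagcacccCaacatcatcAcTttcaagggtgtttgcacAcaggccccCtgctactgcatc
Map3k13: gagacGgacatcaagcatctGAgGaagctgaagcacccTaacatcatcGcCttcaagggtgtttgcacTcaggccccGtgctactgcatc
The JNK window, coding bases 538 to 627 of Mapk8 and Mapk9 and 742 to 831 of Mapk10, held 70 identical and 20 differing positions. It includes the codons of the threonine, proline and tyrosine that MKK4 and MKK7 phosphorylate at the threonine and tyrosine, which read acgccttat in Mapk8, actccctat in Mapk9 and actccgtat in Mapk10. The DLK and LZK window held 81 identical and 9 differing positions. Over the whole aligned coding sequence, the JNK pairs were identical at 74.6% to 75.2% of bases and DLK and LZK at 60.3%. The longest run of bases shared by any transcripts of a pair was 27 for Mapk8 and Mapk10, 23 for each other JNK pair and 18 for DLK and LZK. A read longer than these runs therefore cannot match both genes exactly. Whether reads with mismatches were assigned to the right gene was not tested.

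The promoter of Mapk10 is shown because, of the promoter windows searched for these genes, only it held the CRE described next. Mapk10 was also one of the genes that passed the test below, which played no part in that choice. The 250 bases before its start (chr5:103211335-103211584, GRCm38.p6, minus strand, RefSeq) are printed 5′ to 3′ with a CRE, the site of CREB and Atf factors, in capitals.
Mapk10 promoter: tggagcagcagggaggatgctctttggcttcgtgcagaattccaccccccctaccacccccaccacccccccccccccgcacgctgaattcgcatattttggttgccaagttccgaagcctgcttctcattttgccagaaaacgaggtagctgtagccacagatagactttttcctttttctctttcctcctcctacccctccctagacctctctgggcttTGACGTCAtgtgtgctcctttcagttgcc
The CRE (TGACGTCA, searched on both strands) lay 29 to 22 bases before the start and was found in 1.55% of all 32851 promoter windows of this length. RefSeq windows were matched for 8 of the 9 genes, with 13 windows in all, and the other windows held no CRE. The AP-1 site TGANTCA, bound by Jun dimers, was in 6.75% of all windows and in 1 of these 13, at the downstream start of Map2k7. The metal response element core, searched as TGCACNC or TGCGCNC and known as the site of the zinc sensor MTF1, was in 21.4% of all windows and in windows of Map3k12, Map2k7, Mapk8 and Mapk9. The matches in these 13 windows did not overlap each other, and they describe letters, not binding.

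Levels are given in RPKM, reads scaled to exon length and library size, which allows genes of different length to be compared. Over the 9 libraries, Map2k7 was the most abundant (mean 58.0 RPKM, rank 733 of 15228), with every library far above those of the other genes. Mapk8ip3 (14.0 RPKM) and Mapk9 (12.7 RPKM) came next, and the ranges of their libraries overlapped. Map3k12 (7.11 RPKM) stood above Map2k4 (5.52), Mapk8 (5.45) and Mapk8ip1 (4.96 RPKM), whose ranges overlapped with each other. Map3k13 (4.06 RPKM) overlapped with Mapk8ip1, and Mapk10 was lowest (1.37 RPKM, rank 11315), below every library of the others. The values rest on 252 reads (Mapk10 in Ctrl replicate 1) to 7379 reads (Map2k7 in ONC replicate 1), and all 9 genes passed the filter on low values, a mean of 0.5 RPKM.

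**Figure D1:**
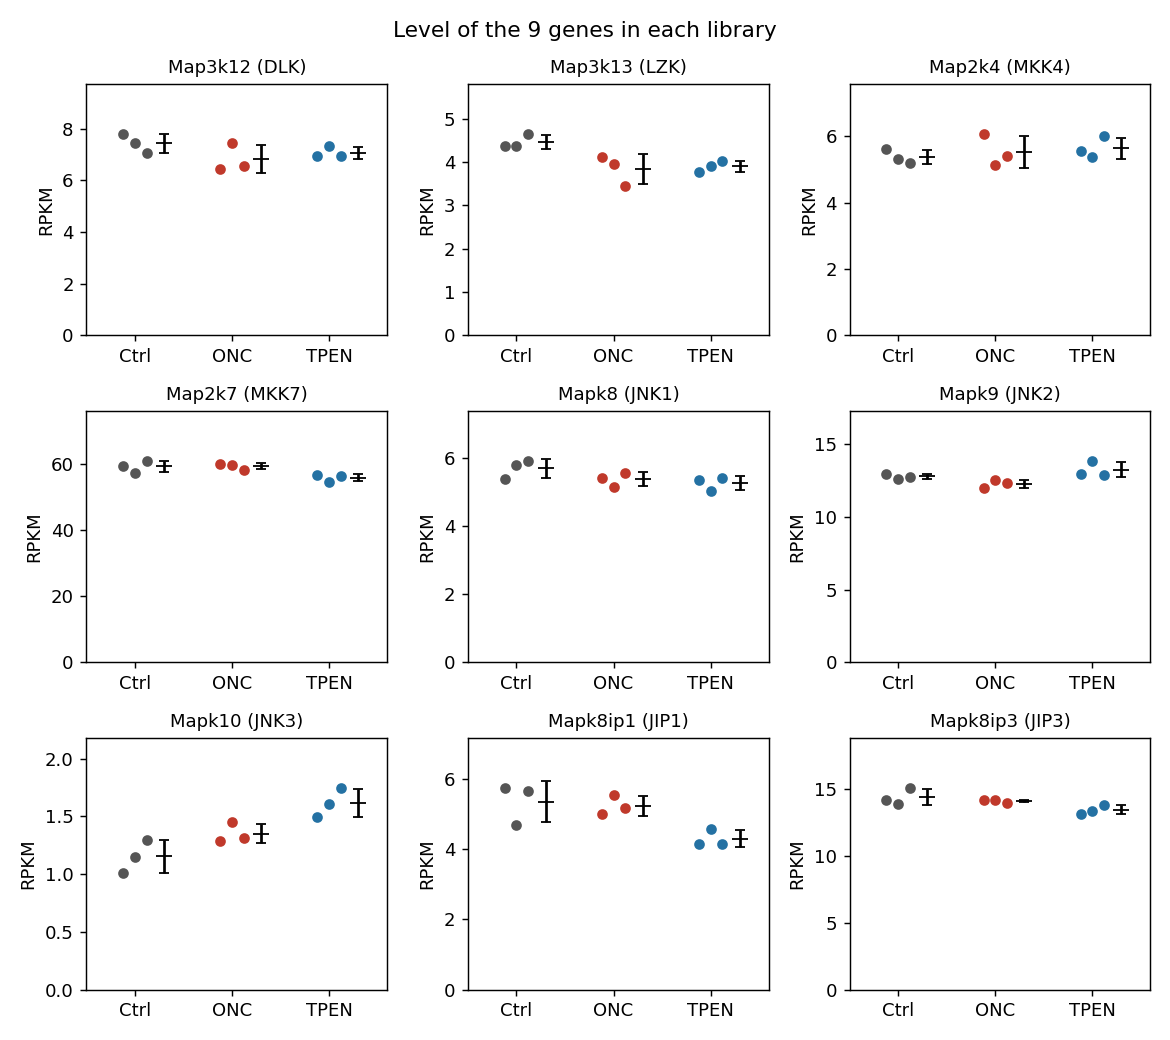
Level of each gene in RPKM (vertical axes, each starting at 0 with its own scale) in the Ctrl, ONC and TPEN libraries. Points are libraries, and the bar beside each group is its mean ± SD (n = 3). The Mapk10 libraries of TPEN, from 1.50 to 1.74 RPKM, lie above those of Ctrl and ONC, and the Mapk8ip1 libraries of TPEN, from 4.15 to 4.57 RPKM, lie below them.

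Groups were compared with limma on log2(RPKM + 0.1) over 13566 genes, and a gene was called at a Benjamini-Hochberg adjusted p under 0.05. The first comparison, ONC/Ctrl, asked what the crush changed. None of the 9 genes was called in ONC/Ctrl, where limma called 18.7% of all genes tested; 1 of the 9, Map3k13, had an unadjusted p under 0.05, as did 31.6% of all genes. The second, TPEN/ONC, asked what the chelator changed after the crush. None of the 9 was called there either, against 7.39% of all genes, and 3 (Map2k7, Mapk9 and Mapk8ip1) had an unadjusted p under 0.05, against 22.0%. In TPEN/Ctrl, 2 of the 9 were called, Mapk10 upward and Mapk8ip1 downward, against 13.4% of all genes, and 5 had an unadjusted p under 0.05, against 27.2%. None of the 9 was called with a 1.5-fold change, the size limit of the study, in any of the 3 comparisons, against 5.34%, 2.03% and 3.91% of all genes. The median log2 fold change of the 9 genes was -0.027 for the crush, 0.026 for the chelator and -0.085 in TPEN/Ctrl, against 0.017, -0.011 and 0.012 for all genes tested. Without regard to direction, the median size of the log2 fold change was 0.058, 0.070 and 0.097 for the 9 genes and 0.13, 0.10 and 0.12 for all genes. The comparisons share libraries in pairs and are therefore not independent of each other. On reads in place of RPKM (limma-voom with TMM scaling), 2 of the 9 genes were called in ONC/Ctrl, 1 in TPEN/ONC and 4 in TPEN/Ctrl. Of all genes tested, voom called 24.1%, 12.1% and 17.6% in these comparisons. The genes among the 9 are named below.

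**Figure D2:**
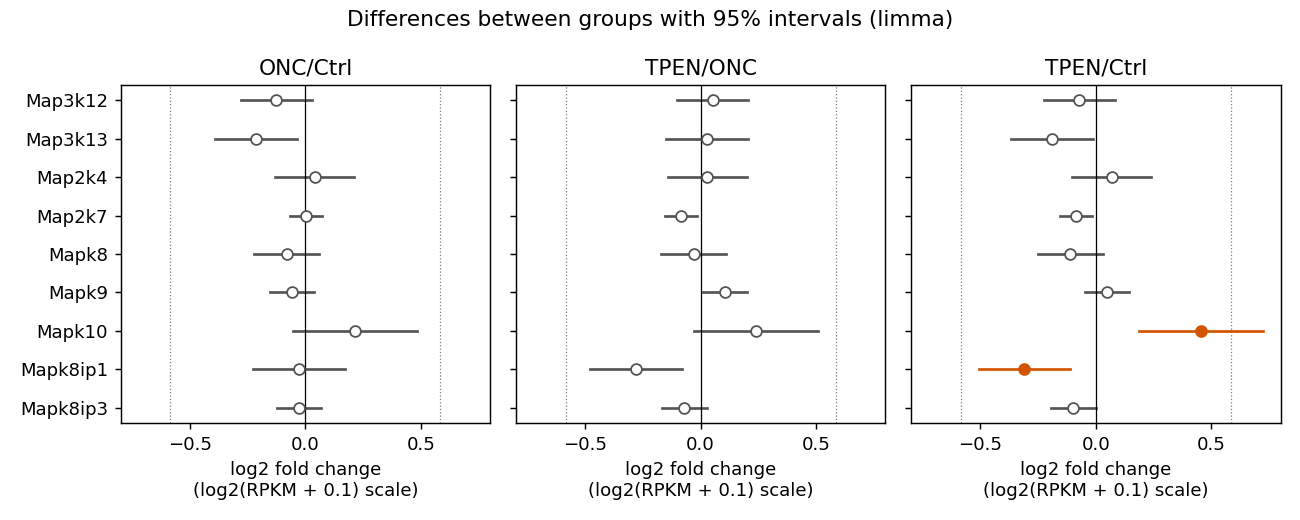
Log2 fold change of each gene on the log2(RPKM + 0.1) scale (horizontal axis) in the 3 comparisons, with 95% intervals from limma. Filled orange points passed an adjusted p of 0.05, open points did not, and dotted lines mark a 1.5-fold change. Filled points stand only in TPEN/Ctrl, for Mapk10 (0.46) and Mapk8ip1 (-0.31).

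The kinases at the head of the cascade are DLK and LZK. Map3k12, on chromosome 15 (102497649 to 102517064, minus strand, GRCm38), was at 7.80, 7.44 and 7.07 RPKM in the Ctrl libraries, 6.46, 7.45 and 6.55 RPKM in ONC and 6.93, 7.34 and 6.93 in TPEN. The 3 groups overlapped. Its log2 fold change in ONC/Ctrl was -0.13 (95% interval -0.28 to 0.03, adjusted p = 0.248). The interval leaves room for a level from 0.824 to 1.02 times that of Ctrl. In TPEN/ONC the log2 fold change was 0.05 (-0.10 to 0.21, adjusted p = 0.709). The exons of Map3k12 share 1571 bases, 17.5% of its listed length, with Pcbp2 on the opposite strand, a gene at 103 RPKM, and 159 bases with Gm10337. The libraries were made with a stranded kit, but the sources used here do not state whether counting used strand, which leaves part of the Map3k12 reads uncertain.

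Map3k13, on chromosome 16 (21891969 to 21931877, plus strand), was at 4.36, 4.36 and 4.65 RPKM in Ctrl, 4.10, 3.97 and 3.44 in ONC and 3.77, 3.90 and 4.03 in TPEN. Each ONC library and each TPEN library was below each Ctrl library, and ONC and TPEN overlapped. The log2 fold change in ONC/Ctrl was -0.21 (95% interval -0.39 to -0.04, adjusted p = 0.0927), and that in TPEN/ONC was 0.03 (-0.15 to 0.20, adjusted p = 0.891). In TPEN/Ctrl it was -0.19 (-0.37 to -0.01, adjusted p = 0.158). On reads with voom, Map3k13 and Map3k12 passed in ONC/Ctrl, with log2 fold changes of -0.24 (adjusted p = 0.0177) and -0.15 (adjusted p = 0.0484). For Map3k13 the adjusted p lay between 0.0177 and 0.259 in the 16 alternatives, and for Map3k12 from 0.0484 to 0.512; each passed in that 1 alternative. The log2 ratio of Map3k12 to Map3k13 within a library was 0.74 ± 0.12 in Ctrl, 0.83 ± 0.15 in ONC and 0.86 ± 0.07 in TPEN (SD, n = 3). These ratios did not differ beyond the spread between libraries (exact permutation test over the 280 splits into 3 groups, p = 0.454).

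By the Pearson correlation of log2(RPKM + 0.1) over the 9 libraries, the genes most like Map3k12 among 12143 genes were Rpe (r = 0.925), Gm27042 (0.925) and RP23-438P19.7 (0.910). For Map3k13 they were Sirpa (0.973), Rsrp1 (0.950) and Ddb1 (0.947). These values describe 9 points in 3 groups that share library totals, and each is the highest of many.

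MKK4 and MKK7 are the kinases that phosphorylate JNK, MKK4 mainly at the tyrosine and MKK7 mainly at the threonine. Map2k4, on chromosome 11 (65688243 to 65788297, minus strand), was at 5.61, 5.32 and 5.19 RPKM in Ctrl, 6.07, 5.13 and 5.41 in ONC and 5.56, 5.38 and 5.998 in TPEN. The groups overlapped in every comparison, and its log2 fold changes lay between 0.029 and 0.070. Its 95% interval in ONC/Ctrl ran from 0.914 to 1.16 times the Ctrl level (adjusted p = 0.766).

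Map2k7, on chromosome 8 (4238740 to 4251423, plus strand), was at 59.4, 57.3 and 60.7 RPKM in Ctrl, 59.9, 59.5 and 58.2 in ONC and 56.6, 54.5 and 56.2 in TPEN. Ctrl and ONC overlapped, and each TPEN library was below each library of the other groups. Its level in ONC was 1.001 times that of Ctrl, with the narrowest interval of the 9 genes (0.954 to 1.05, adjusted p = 0.979). In TPEN/ONC the log2 fold change was -0.09 (SE 0.03, adjusted p = 0.137) and in TPEN/Ctrl -0.08 (SE 0.03, adjusted p = 0.109), which passed only on reads with voom (adjusted p = 0.0263). Of its listed exons, 1530 bases (28.6%) are shared with Tgfbr3l on the same strand, a gene at 5.16 RPKM, so strand cannot separate those reads.

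The JNKs are the kinases that the cascade ends in. JNK1 and JNK2 are made in most tissues, and JNK3 is known as the form of neurons. Mapk8, on chromosome 14 (33377898 to 33447158, minus strand), was at 5.39, 5.80 and 5.91 RPKM in Ctrl, 5.41, 5.16 and 5.57 in ONC and 5.36, 5.03 and 5.41 in TPEN. The groups overlapped, with a log2 fold change of -0.08 (95% interval -0.22 to 0.06, adjusted p = 0.420) in ONC/Ctrl. In TPEN/ONC it was -0.03 (-0.17 to 0.11, adjusted p = 0.836).

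Mapk9, on chromosome 11 (49846751 to 49886421, plus strand), was at 12.9, 12.6 and 12.8 RPKM in Ctrl, 11.96, 12.5 and 12.3 in ONC and 13.0, 13.8 and 12.9 in TPEN. The ONC libraries were the lowest 3, and Ctrl and TPEN overlapped. The log2 fold change was -0.06 (95% interval -0.15 to 0.04, adjusted p = 0.400) in ONC/Ctrl and 0.11 (0.01 to 0.20, adjusted p = 0.181) in TPEN/ONC.

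Mapk10, on chromosome 5 (102907948 to 103211334, minus strand), was at 1.01, 1.15 and 1.298 RPKM in Ctrl, 1.29, 1.45 and 1.31 in ONC and 1.50, 1.61 and 1.74 in TPEN. These values came from 252 to 296, 330 to 370 and 333 to 397 reads. Each TPEN library was above each library of the other groups, and Ctrl and ONC overlapped. The log2 fold change was 0.22 (SE 0.12, adjusted p = 0.254) in ONC/Ctrl and 0.24 (SE 0.12, adjusted p = 0.279) in TPEN/ONC. In TPEN/Ctrl Mapk10 rose, with a log2 fold change of 0.46 (95% interval 0.19 to 0.73, adjusted p = 0.0335). On the RPKM + 0.1 scale this is 1.37 times Ctrl (1.14 to 1.65), while the mean RPKM was 40.1% higher. The call in TPEN/Ctrl was lost without Ctrl replicate 1 (adjusted p = 0.107), Ctrl replicate 2 (0.0801), TPEN replicate 1 (0.0511), TPEN replicate 2 (0.0817) or TPEN replicate 3 (0.107). It was lost as well after quantile normalization (0.0710) and with the 6 compared libraries alone (0.0711), and on reads with voom the adjusted p was 0.00104. No listed gene shares exon bases with Mapk10.

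Within a library, the share of each JNK gene in the summed RPKM of the 3 does not depend on the library total. Mapk9 made up 65.1% ± 1.60 in Ctrl, 64.6% ± 0.778 in ONC and 65.7% ± 1.65 in TPEN (SD, n = 3). Mapk8 made up 29.0% ± 1.01, 28.3% ± 1.17 and 26.2% ± 1.40. The share of Mapk10 was 5.22%, 5.88% and 6.50% in the Ctrl libraries, 6.91%, 7.57% and 6.85% in ONC and 7.56%, 7.85% and 8.71% in TPEN. Each ONC and TPEN library was above each Ctrl library, and the highest ONC library lay just above the lowest TPEN library. The share of Mapk10 differed between the groups (exact permutation test over 280 splits, p = 0.00714, 0.0214 after Benjamini-Hochberg adjustment over the 3 shares; the smallest p the test allows is 0.00357). With each library left out, the permutation p of the Mapk10 share ran from 0.00714 to 0.0179 before adjustment. The adjustment over the 3 shares was not repeated for these. With a library left out, the permutation p was at least 0.05 for Mapk8 and at least 0.314 for Mapk9. Beside these, the highest p of the Mapk10 share, 0.0179, would not stay under 0.05 after that adjustment. The adjusted result therefore depends on which libraries are included. The shares of Mapk8 (p = 0.0714, adjusted 0.107) and Mapk9 (p = 0.561) did not pass in the same exact test. With 3 libraries against 3, no pair of groups can reach p under 0.1 in the exact permutation test. The pair p for the Mapk10 share was 0.1 for ONC and Ctrl, 0.2 for TPEN and ONC and 0.1 for TPEN and Ctrl. The share of Mapk10 uses the same values as its level above and adds no independent libraries. The summed RPKM of the 3 JNK genes ran from 19.3 to 19.96 in Ctrl, 18.7 to 19.2 in ONC and 19.8 to 20.4 in TPEN.

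**Figure D3:**
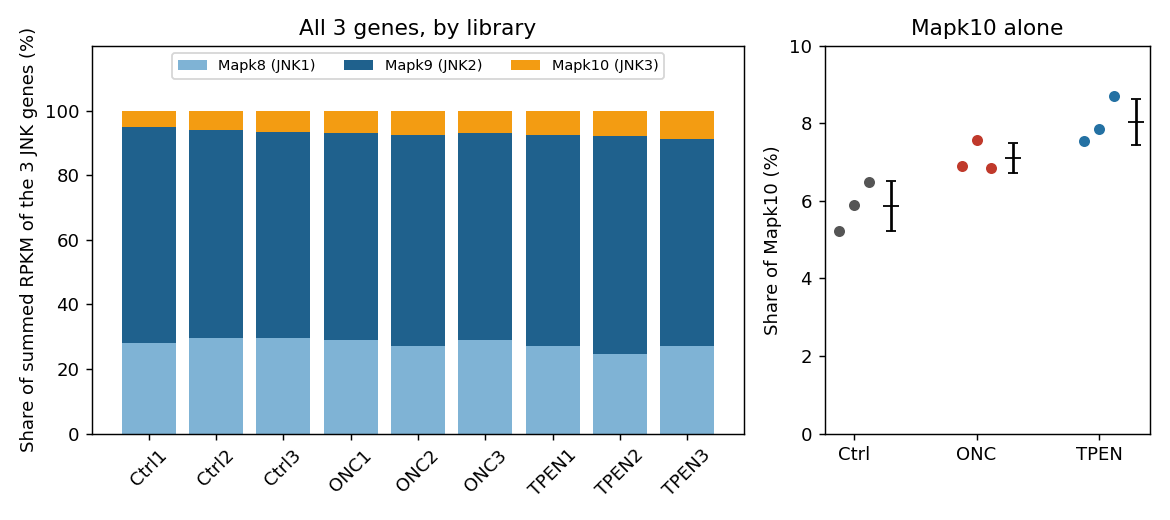
Left, share of Mapk8, Mapk9 and Mapk10 in their summed RPKM (%, vertical axis) in each of the 9 libraries. Right, the share of Mapk10 alone on an axis from 0 to 10%, with points for libraries and bars for the mean ± SD (n = 3), 5.87% in Ctrl, 7.11% in ONC and 8.04% in TPEN.

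JIP1 and JIP3 are scaffolds that bind JNK with its upstream kinases and attach to kinesin. Mapk8ip1, on chromosome 2 (92383676 to 92401263, minus strand), was at 5.73, 4.69 and 5.65 RPKM in Ctrl, 5.002, 5.55 and 5.17 in ONC and 4.15, 4.57 and 4.16 in TPEN. Each TPEN library was below each Ctrl and ONC library, and Ctrl and ONC overlapped. The log2 fold change was -0.03 (95% interval -0.23 to 0.17, adjusted p = 0.870) in ONC/Ctrl and -0.28 (-0.48 to -0.08, adjusted p = 0.0939) in TPEN/ONC, which passed on reads with voom (adjusted p = 0.0454). In TPEN/Ctrl Mapk8ip1 fell, with a log2 fold change of -0.31 (-0.51 to -0.11, adjusted p = 0.0483), or 0.807 times the Ctrl level. Ctrl replicate 2, the lowest of its group, narrowed the difference, and without it the adjusted p was 0.0133. Without any other library the call was lost, with an adjusted p of 0.150 without Ctrl replicate 1, 0.135 without Ctrl replicate 3, 0.0655, 0.0606 and 0.0680 without ONC replicates 1, 2 and 3, and 0.128, 0.0578 and 0.129 without TPEN replicates 1, 2 and 3. It was also lost with the 6 compared libraries alone (0.0895).

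Mapk8ip3, on chromosome 17 (24892153 to 24936977, minus strand), was at 14.1, 13.9 and 15.0 RPKM in Ctrl, 14.1, 14.1 and 14.0 in ONC and 13.1, 13.4 and 13.8 in TPEN. The TPEN libraries were the lowest 3, by a small margin. The log2 fold change was -0.027 (adjusted p = 0.721) after crush, -0.070 (0.388) in TPEN/ONC and -0.097 (adjusted p = 0.180) in TPEN/Ctrl, and it passed in TPEN/Ctrl on reads with voom (adjusted p = 0.0344). Its exons share 1557 bases with Eme2 on the same strand and 1309 and 577 bases with Mrps34 and Nme3 on the opposite strand.

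Groups without overlap were seen for 2 of the 9 genes in ONC/Ctrl (Map3k13 and Mapk9, both lower), against 36.5% of all genes tested (20.7% higher and 15.8% lower). In TPEN/ONC there were 5 (Mapk9 and Mapk10 higher, Map2k7, Mapk8ip1 and Mapk8ip3 lower), against 28.0% (12.5% higher and 15.6% lower). In TPEN/Ctrl there were 5 (Mapk10 higher, Map3k13, Map2k7, Mapk8ip1 and Mapk8ip3 lower), against 31.3% (18.1% higher and 13.3% lower).

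Markers of other cells moved between the same groups. The summed level of the 9 listed RGC markers was 332 to 343 RPKM in Ctrl, 350 to 371 in ONC and 269 to 281 in TPEN. Most of this sum was Nefl (mean 240.03 RPKM), and the markers did not move together. Nefl was at 254 to 260 RPKM in Ctrl, 256 to 271 in ONC and 193 to 206 in TPEN, whereas Thy1 was at 4.54 to 4.96, 5.26 to 5.54 and 6.70 to 7.58 RPKM. Pou4f1 was near 0 (mean 0.332 RPKM). The 5 rod markers summed to 16766 to 17578, 14665 to 14889 and 15772 to 15897 RPKM, and the 4 cone markers to 96.9 to 102, 84.0 to 91.8 and 147 to 150 RPKM. The 4 Müller glia markers summed to 309 to 322, 243 to 246 and 212 to 225 RPKM, mostly from Glul and Rlbp1, while Slc1a3 was at 8.24 to 8.83, 8.95 to 10.2 and 9.17 to 10.4 RPKM and Aqp4 at 9.09 to 10.1, 7.16 to 8.22 and 8.84 to 10.02 RPKM. The 7 markers of microglia and macrophages summed to 2.88 to 3.48, 24.9 to 27.9 and 14.4 to 15.3 RPKM. Gfap, listed as an astrocyte marker, was at 2.73 to 2.83, 21.8 to 22.9 and 13.4 to 15.1 RPKM. Pax2, the other astrocyte marker looked for, was not in the table, and Gfap alone does not show which glia its transcripts came from. The part of these cell types in the values of the 9 genes was not tested.

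The genes around the cascade were counted in 7 lists with 68 genes, of which 61 were in the table and 57 passed the filter. In ONC/Ctrl 14 of the 57 rose and 4 fell, against 11.7% and 6.97% of all genes tested, and 5 of these changed by 1.5-fold or more. In TPEN/ONC 2 rose and 7 fell, against 3.24% and 4.14%, and none reached 1.5-fold. In TPEN/Ctrl 14 rose and 5 fell, against 8.36% and 5.01%.

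Of 9 kinases and regulators that act on DLK or LZK, 2 rose and 1 fell in ONC/Ctrl, and 1 fell in TPEN/ONC. Their median log2 fold changes were -0.01 and 0.01, and none reached 1.5-fold. Named after their values were seen, these were Map4k4, a kinase upstream of DLK (log2 fold change 0.49 in ONC/Ctrl, adjusted p = 3.7e-05), the chaperone gene Hsp90ab1 (0.41) and Zdhhc17, a palmitoyltransferase of DLK (-0.26). In TPEN/ONC it was Hsp90ab1 again (-0.28), with ONC libraries shared by both comparisons.

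Of 12 other MAP3 and TAO kinases tested, 2 rose and 2 fell in ONC/Ctrl and 1 rose in TPEN/ONC. Map3k1 (MEKK1) was at 11.7 ± 0.791 RPKM in Ctrl, 18.1 ± 1.32 in ONC and 17.6 ± 0.478 in TPEN (SD, n = 3), a log2 fold change of 0.62 (SE 0.06, adjusted p = 1.2e-04) in ONC/Ctrl. Map3k5 (ASK1), a kinase that responds to oxidative stress, was at 2.28 ± 0.0493, 3.70 ± 0.247 and 3.09 ± 0.153 RPKM, a log2 fold change of 0.68 (SE 0.08, adjusted p = 2.6e-04). The Ctrl libraries of both genes were below every ONC and TPEN library. Named after their values were seen, Map3k2 (-0.40) and Taok3 (-0.20) fell in ONC/Ctrl, and Map3k2 rose in TPEN/ONC (0.39, adjusted p = 0.0172). The latter call was lost without ONC replicate 2 or 3 or TPEN replicate 2 or 3 (adjusted p up to 0.0646).

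Of 4 phosphatases of JNK that were tested, 2 rose in ONC/Ctrl and 1 in TPEN/ONC. Dusp16 was at 0.881 ± 0.125 RPKM in Ctrl, 1.59 ± 0.122 in ONC and 1.72 ± 0.109 in TPEN, with a log2 fold change of 0.79 (SE 0.13, adjusted p = 0.00181) in ONC/Ctrl. Below 1.5-fold and named after their values were seen, Dusp8 rose in ONC/Ctrl (0.56) and Dusp4 in TPEN/ONC (0.52, adjusted p = 0.0418). The Dusp4 call was kept only without Ctrl replicate 3 or TPEN replicate 3, and was lost without any other single library (adjusted p up to 0.137).

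Of 10 other scaffolds and axonal motors tested, 2 rose in ONC/Ctrl and 4 fell in TPEN/ONC, their median log2 fold changes being 0.062 and -0.12. Named after their values were seen, the 4 that fell in TPEN/ONC were Kif5a (-0.37), Kif5c (-0.30), Kif5b (-0.16) and Klc1 (-0.11), which encode subunits of the motor kinesin-1. Its other subunit on the list, Klc2, had a log2 fold change of -0.14 (adjusted p = 0.137). Nefl, the neurofilament gene given above, had one of -0.42 (adjusted p = 6.3e-05) between the same libraries. The RGC markers did not move together, and Thy1 went the other way, from 5.26 to 5.54 RPKM in the ONC libraries to 6.70 to 7.58 in TPEN. Whether the kinesin values follow any of these markers was not tested. The calls of Kif5b and Klc1 were lost without ONC replicate 1, 2 or 3, without TPEN replicate 1, and without TPEN replicate 2 for Kif5b or TPEN replicate 3 for Klc1 (adjusted p up to 0.0703 and 0.0637). Kif5c (0.14) and Klc1 (0.085) were the 2 that rose in ONC/Ctrl. Both calls were lost without Ctrl replicate 2 or ONC replicate 2, that of Kif5c also without Ctrl replicate 1 or 3 and that of Klc1 without ONC replicate 1 or 3 (adjusted p up to 0.0917 and 0.0675). Among the nuclear substrates, 2 of 7 rose and 1 fell in ONC/Ctrl (Jund 0.28, Mef2d 0.20 and Elk1 -0.30, named after their values were seen). In TPEN/ONC 0 of 7 were called by limma, and 3 had an unadjusted p under 0.05, against 22.0% of all genes tested. Of the 10 scaffolds and motors, 6 had an unadjusted p under 0.05 in TPEN/ONC. The Jund call was lost without Ctrl replicate 1 (adjusted p = 0.0540) and the Elk1 call without Ctrl replicate 2 or ONC replicate 1 or 2 (up to 0.0903). Jun itself, the substrate that names JNK, was at 42.2 ± 3.33 RPKM in Ctrl, 47.6 ± 2.31 in ONC and 41.3 ± 3.37 in TPEN, with log2 fold changes of 0.17 (adjusted p = 0.128) in ONC/Ctrl and -0.21 (0.119) in TPEN/ONC.

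Of 11 injury genes known downstream of DLK, 8 were in the table and 6 passed the filter on low values. Of these 6, 3 rose in ONC/Ctrl and 2 fell in TPEN/ONC, against 11.7% and 4.14% of all genes tested. Bbc3, Bcl2l11 and Tnfrsf12a were not called in either comparison. Atf3, a transcription factor of injured neurons, was at 6.52, 6.27 and 5.71 RPKM in Ctrl, 14.0, 13.9 and 15.1 in ONC and 10.2, 10.7 and 10.7 in TPEN. Gap43, a protein of growing axons, was at 7.79, 7.78 and 7.78 RPKM in Ctrl, 24.8, 23.6 and 23.4 in ONC and 19.4, 20.01 and 19.6 in TPEN. For both genes the 3 groups were apart, with ONC highest and Ctrl lowest. The log2 fold change of Atf3 was 1.205 (adjusted p = 8.8e-07) in ONC/Ctrl and -0.44 (0.00252) in TPEN/ONC. That of Gap43 was 1.61 (adjusted p = 4.9e-09) after crush and -0.28 (0.00210) with the chelator. The third that rose was Ddit3 (0.45), the stress factor CHOP, named after its values were seen. The ONC libraries enter both comparisons. Gfap and the summed microglia and macrophage markers given above were likewise highest in ONC, and their part in these values was not tested.

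**Figure D4:**
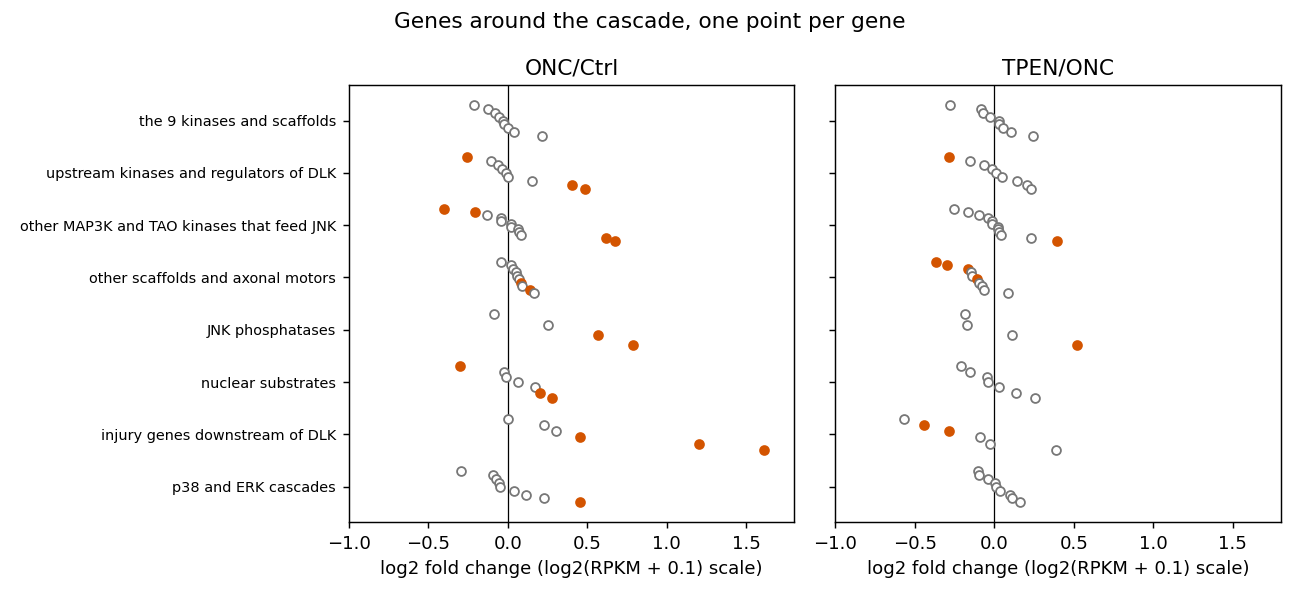
Log2 fold change (horizontal axis, log2(RPKM + 0.1) scale) of the 9 genes (top row) and of the 57 tested genes of 7 lists in ONC/Ctrl and TPEN/ONC, with a point per gene, filled where the adjusted p was under 0.05. The 9 genes hold no filled point and lie between -0.28 and 0.24, while points of the injury list reach 1.61 in ONC/Ctrl.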

How the data were processed

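RPKM values of 9 libraries were deposited by the authors, who mapped reads of a stranded mRNA kit with molecular identifiers to GRCm38/mm10 with STAR. Trimmomatic 0.36 is named in the submitters' processing notes. The counting program, the annotation and whether identifiers were collapsed are not given in the sources used here. The 9 columns of edgeR p-values, FDR and log2 fold changes deposited by the authors were not used. Every RPKM value multiplied by gene length was a whole multiple of 1 step per library (within 0.01), which gave reads and totals. The length column, recorded as a score, holds exon bases as deposited by the authors. A count of 0 allows up to 3 reads, for counting error only.

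Genes with a mean over 9 libraries of 0.5 RPKM or more (13566) were tested with limma 3.58.1 in R 4.3.3 on log2(RPKM + 0.1), with the variance fitted as a trend, all 9 libraries in the fit and 1 coefficient per group. Levels given as times the Ctrl level come from this scale, and the pseudocount makes fold changes of low genes smaller. The method was tested on simulated data. Alternatives changed the pseudocount, filter, normalization, fold limit, libraries in the fit, replicate block and test (voom on reads). Shares, ratios and the summed RPKM of the JNK genes were tested by exact permutation of libraries (two-sided). No pair of libraries of a group agreed within sampling noise. Coding sequences of GENCODE M21 were aligned with MAFFT 7.526. All 9 genes were named; of each list, genes called at 1.5-fold in ONC/Ctrl or TPEN/ONC, at most 4, and for DLK and LZK the 3 nearest genes. The members and lists were chosen with earlier results of these data known.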

Additional observations from a re-analysis of the deposited data

How the results depend on the processing

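In ONC/Ctrl the number called was 0 under each alternative except voom on reads (2), and in TPEN/ONC 0 except voom (1). Of all genes tested, voom called 24.1% in ONC/Ctrl, 12.1% in TPEN/ONC and 17.6% in TPEN/Ctrl. In TPEN/Ctrl the 2 calls became 4 with voom, 1 after quantile normalization, 0 with the 6 compared libraries alone, 0 with a 1.5-fold limit, and 0 to 1 when a library was left out. With the replicate number as a block, TPEN/Ctrl held 1 call, with Mapk8ip1 at an adjusted p of 0.0996, the lists held 1 gene that rose in TPEN/ONC in place of 2, and the number of all genes called in TPEN/ONC was 701 in place of 1002; libraries of the same number did not deviate together (correlations from -0.062 to 0.027), so they share only a number. Leaving out a library gave 0 to 3 list genes that rose in TPEN/ONC and 2 to 5 that fell in TPEN/Ctrl. Over all genes, voom called 1638 in TPEN/ONC against 1002, and leaving out a library 536 to 1151. The share of Mapk8, TPEN minus Ctrl, was -3.45 percentage points with shares of reads (exact permutation p = 0.0429), against -2.81 (p = 0.0714) with RPKM. Without a library, the Mapk9 share in TPEN minus Ctrl ran from -0.263 to 1.54 percentage points and turned sign without TPEN replicate 2. Small log2 fold changes turned sign as well, none of them called: that of Map2k7 in ONC/Ctrl was -0.036 after quantile normalization and -0.023 with voom, and without a library ran from -0.021 to 0.021. Without a library, the ONC/Ctrl value of Map2k4 ran from -0.027 to 0.092, of Mapk8ip1 from -0.12 to 0.024 and of Mapk8ip3 from -0.050 to 0.0066. In TPEN/ONC, Map3k13 ran from -0.048 to 0.076, Map2k4 from -0.023 to 0.096 and Mapk8 from -0.059 to 0.0022. The causes were not tested. The planned quasi-likelihood count test on reads was not run, and limma-voom was the test used on the recovered reads. Depth limits Mapk10 most, at 252 to 397 reads.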

Other observations

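The neighboring p38 and ERK cascades, of which p38 shares MKK4 with JNK, were measured through 9 further genes. In ONC/Ctrl 1 of the 9 rose and 0 fell by limma, against 11.7% and 6.97% of all genes tested. In TPEN/ONC 0 were called, against 7.39% of all genes, and 0 had an unadjusted p under 0.05, against 22.0%. The gene that rose, named after its values were seen, was Mapk11 (p38 beta), at 5.60 ± 0.699 RPKM in Ctrl, 7.68 ± 0.609 in ONC and 7.14 ± 0.156 in TPEN (SD, n = 3), a log2 fold change of 0.45 (SE 0.09, adjusted p = 0.00754) in ONC/Ctrl. The median log2 fold change of the 9 genes was -0.048 in ONC/Ctrl and 0.0077 in TPEN/ONC.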
